A study of Mus musculus with 6 samples.

Results

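Laminins, nidogens, perlecan and agrin are the proteins around which a basement membrane is built. The 10 genes described here were chosen by name from the 14735 genes of the expression table, and all 10 were measured: the laminin alpha chain genes *Lama2*, *Lama4* and *Lama5*, the beta chain genes *Lamb1* and *Lamb2*, the gamma chain gene *Lamc1*, the nidogen genes *Nid1* and *Nid2*, *Hspg2*, which encodes perlecan, and *Agrn*, which encodes agrin. Their RNA was compared between 3 tdTOMATO+ and 3 tdTOMATO- colonies. Each was a fibroblastic colony (CFU-F) grown under low oxygen from hind-limb marrow of *Col10a1Cre; R26-tdTomato* mice aged 2 months on a C57BL/6 background and taken at day 10 of culture. The labels give the same mouse genotype for all colonies, and the groups differ in reporter fluorescence. The reporter allele is switched on where Cre has recombined it. In this line the *Col10a1* promoter drives a constitutively active Cre, so tdTOMATO marks hypertrophic chondrocytes and any cell that descends from them. Each library is the RNA of a whole colony lysed inside a cloning cylinder, including any other cells within the cylinder, and no source used here says that the colonies came from separate mice. The p-values below therefore measure the spread between these colonies.

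A laminin is a cross-shaped trimer of an alpha, a beta and a gamma chain, and laminins join end to end into a sheet at the cell surface. Nidogens bind the laminin gamma chain and type IV collagen and so link both networks. Perlecan and agrin carry heparan sulfate chains and tie the sheet to growth factors and to receptors such as dystroglycan and integrins. In bone marrow, basement membranes surround sinusoids and arterioles, and laminins with the alpha chains of *Lama4* and *Lama5* are typical of vessel walls.

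On GRCm38 with the GENCODE M21 annotation, *Lama2* (chr10:26980036-27619758, minus strand) and *Lama4* (chr10:38965515-39110188, plus strand) lie on the same chromosome, and *Lama5* spans chr2:180176373-180225859 on the minus strand. The beta chain genes *Lamb1* and *Lamb2* span chr12:31265234-31329644 and chr9:108479736-108490530, both on the plus strand, and *Lamc1* spans chr1:153218922-153332786 on the minus strand. *Nid1* spans chr13:13437551-13512269 and *Nid2* chr14:19751265-19811787, both on the plus strand. *Hspg2* (chr4:137468769-137570630, plus strand) and *Agrn* (chr4:156165290-156197488, minus strand) share a chromosome. The exons of *Nid2* share 437 bases, 8.45% of its exonic length, with the opposite-strand gene *Rtraf*, which lay between 1352 and 1428 normalized counts in the 6 colonies. Whether the authors' counting used strand is not given in the sources used here, so reads in those bases cannot be assigned to either gene.

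The RefSeq promoter table (GRCm38.p6) held a start site for 7 of the 10 genes, with 8 start sites in all. The 250 bases before the start are shown for *Nid1* and *Hspg2*, the genes with the highest level per kb of exon, and for *Lama5*, the gene with the largest fitted difference between groups. Capitals mark the GC box letters GGGCGG or CCGCCC and the CCAAT box letters CCAAT or ATTGG, searched on both strands, and the TATA box letters TATAAA or TTTATA were searched too. The stretches are chr13:13437352-13437601 (plus strand), chr4:137468553-137468802 (plus strand) and chr2:180225860-180226109 (minus strand, written 5′ to 3′ on that strand).
Nid1: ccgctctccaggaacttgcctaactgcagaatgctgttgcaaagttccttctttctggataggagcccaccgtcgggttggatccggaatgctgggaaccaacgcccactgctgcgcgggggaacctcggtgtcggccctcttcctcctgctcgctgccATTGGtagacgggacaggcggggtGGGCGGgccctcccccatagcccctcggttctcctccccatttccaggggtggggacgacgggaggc
Hspg2: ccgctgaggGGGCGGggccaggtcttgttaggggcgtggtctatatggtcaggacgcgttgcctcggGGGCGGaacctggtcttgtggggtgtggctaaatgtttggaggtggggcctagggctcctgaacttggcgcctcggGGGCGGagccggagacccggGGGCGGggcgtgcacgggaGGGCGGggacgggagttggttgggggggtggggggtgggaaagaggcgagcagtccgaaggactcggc
Lama5: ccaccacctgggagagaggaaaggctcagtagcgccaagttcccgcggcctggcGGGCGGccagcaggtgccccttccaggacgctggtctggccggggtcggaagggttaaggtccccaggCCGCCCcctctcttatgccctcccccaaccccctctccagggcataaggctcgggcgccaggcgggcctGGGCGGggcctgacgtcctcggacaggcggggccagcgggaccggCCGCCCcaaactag
Of these, *Hspg2* held the GC box 5 times, *Lama5* 4 times and *Nid1* 1 time, and *Nid1* also held a single CCAAT box. A GC box was present before 6 of the 8 start sites, against 32.7% of the 32851 promoters in the table. A CCAAT box was present before 2 of the 8 sites, against 33.8% of all promoters, and the TATA letters before 0 of the 8, against 12.4%. The stretches before *Lamb2* and *Lama2* held none of the 3 motifs. A match of letters is a description and not a binding site.

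The table gives for each gene a normalized count, a read count divided by a size factor of its library. The reads behind the table, recovered from these values, numbered 24085516 to 31046589 per colony. Over all genes, limma, which fits a linear model to log2(normalized count + 1) and adjusts p by Benjamini and Hochberg, called 177 genes higher and 21 lower in tdTOMATO+ colonies at an adjusted p under 0.05. Markers of cell types that a colony could hold were read from lists. Of the 15 macrophage and leukocyte markers all 15 were measured, none at 0, and 14 rose in tdTOMATO+ colonies, where their summed level was 80542 to 87978 normalized counts, against 46921 to 47331 in tdTOMATO- colonies. *Lyz2* (log2 fold change 0.84) and *Lcp1* (0.81) were the most abundant of them. The 13 fibroblastic stroma markers, led by *Col1a1* and *Col1a2*, were all measured, with 0 called. Of these, 10 had a log2 fold change below 0 and 3 above 0, with a median of -0.28. They summed to 1249953 to 1542202 normalized counts in tdTOMATO+ colonies, against 1519436 to 1675613 in tdTOMATO- colonies. No gene passed in limma in the endothelial (7 of 12 measured, led by *Kdr* and *Cdh5*), pericyte (9 of 9, *Acta2* and *Tagln*), Schwann cell (5 of 8, *Pmp22* and *S100b*), adipocyte (2 of 5, *Fabp4* and *Adipoq*), chondrocyte (7 of 7, *Col2a1* and *Sox9*) or osteoblast (6 of 6, *Spp1* and *Alpl*) lists. Of the genes named for these lists, DESeq2 called *S100b* higher (adjusted p = 0.0057) and *Sox9* lower (adjusted p = 0.0081). The summed endothelial level was 199.96 to 230.7 normalized counts in tdTOMATO+ colonies and 113.8 to 182.1 in tdTOMATO- colonies, and 6 of its 7 genes averaged under 30. Summed osteoblast levels were also higher in tdTOMATO+ colonies (118939 to 137037, against 52646 to 103796), as were Schwann cell levels (4389 to 5001, against 3992 to 4190). Such sums weigh abundant genes most, and the most abundant, *Spp1* and *Pmp22*, did not pass (limma adjusted p = 0.742 and 0.769). In the Schwann cell list 2 of the 5 measured genes averaged under 30. The pericyte, adipocyte and chondrocyte sums overlapped between the groups. Of the 7 chondrocyte genes, 6 had a log2 fold change below 0 (median of the list -0.56), and 3 averaged under 30. The part of other cells in the values below was not tested, and in such bulk samples fewer cells of a type and less RNA per cell cannot be told apart.

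All 10 genes were expressed in every colony of both groups, at levels that are compared here per kb of exon. *Nid1* (3343 to 5215 normalized counts per kb over the 6 colonies) and *Hspg2* (3575 to 4418 per kb) were highest, and their ranges overlapped. *Lamb2* (1058 to 1270 per kb), *Nid2* (884 to 1391 per kb), *Lamb1* (942 to 1198 per kb) and *Lamc1* (903 to 1257 per kb) followed. The ranges of these neighbours overlapped, though *Lamb2* was above *Lamc1* in each colony. *Lama4*, between 332 and 516 per kb, lay below all of them and above *Lama5*, between 84.9 and 250.5 per kb. *Agrn*, between 97.1 and 133.5 per kb, overlapped *Lama5*, and *Lama2*, between 18.8 and 64.2 per kb, was lowest. On this scale *Nid1* ranked 159 and *Hspg2* 171 of all genes with a known exonic length, while *Lama2* ranked 10380.

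**Figure D1:**
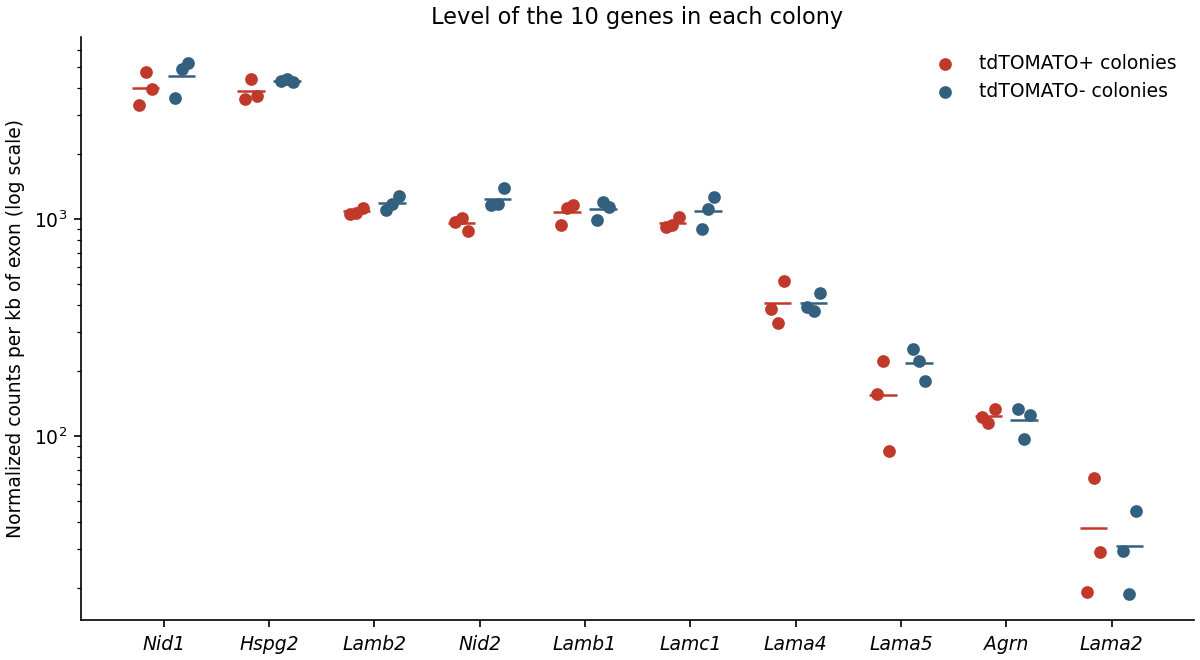
Normalized counts per kb of exon (log scale) of the 10 genes, ordered by their mean, in the 3 tdTOMATO+ colonies (red, left of each pair) and the 3 tdTOMATO- colonies (blue, right). Points are colonies and bars are group means. *Nid1* and *Hspg2* lie above the other genes in every colony, and *Nid2* is the only gene whose groups do not overlap.

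None of the 10 genes passed the test between the groups (0 higher, against 1.2% of all genes, and 0 lower, against 0.143%). At an unadjusted p under 0.05 there was 1, *Nid2*, against 12.3% of all genes. edgeR's quasi-likelihood test on the recovered reads called 0 of the 10, against 1.15% of all genes higher and 0.129% lower. DESeq2 called 0 higher, against 3.52% of the genes to which it gave an adjusted p, and 1 lower, again *Nid2*, against 1.12%. The log2 fold change, tdTOMATO+ over tdTOMATO-, was below 0 for 8 genes and above 0 for 2, with a median of -0.14 over the 10 and 0.00 over all genes. Leaving out single colonies moved that median between -0.21 (without tdTOMATO+ replicate 2) and -0.065 (without tdTOMATO- replicate 3; -0.078 without tdTOMATO+ replicate 1), with 6 to 9 genes below 0. When libraries were instead scaled to the stroma markers, 2 genes were below 0 and the median was 0.12, beside a median of 0.26 over all genes. Such a scaling shifts the log2 fold changes of all genes by nearly the same amount. The distance of the 10 genes from the median of all genes could therefore hardly change, and the scaling does not test it. For 6 of the 10 genes the 95% interval lay within 1.5-fold in both directions, and for 8, all but *Lama2* and *Lama5*, within 2-fold.

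**Figure D2:**
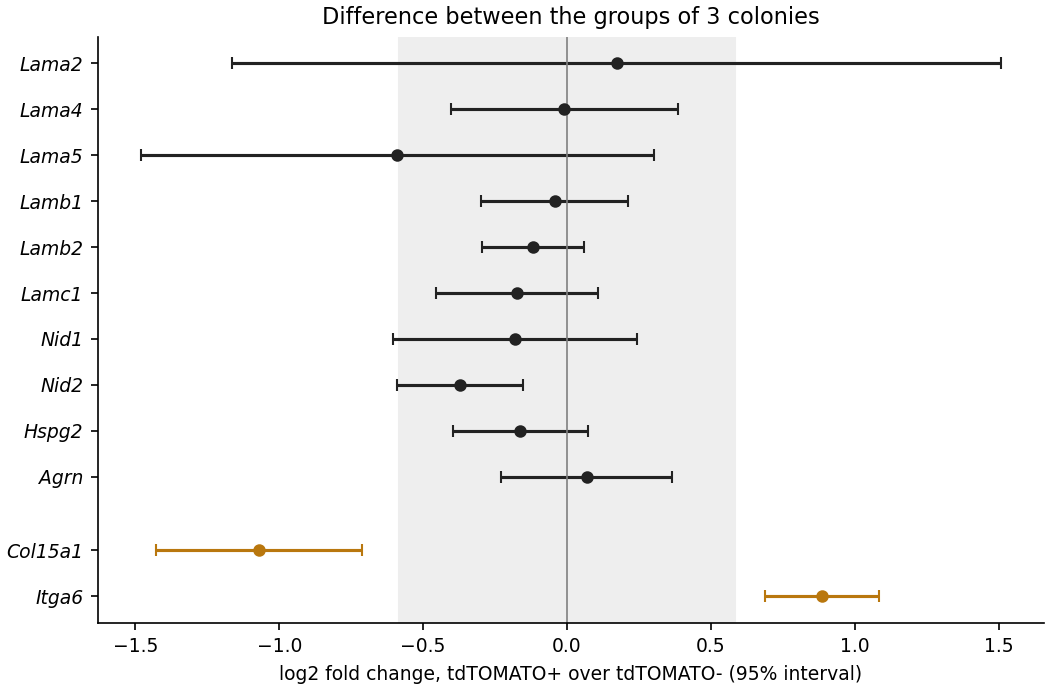
log2 fold change, tdTOMATO+ over tdTOMATO-, of the 10 genes (black) and of 2 genes of the further lists that passed the test (the matrix gene *Col15a1* and the receptor gene *Itga6*, orange). Points are limma estimates from 3 colonies a group, bars are 95% intervals without adjustment for the number of genes, and the grey band spans 1.5-fold in both directions. Among the black points only the interval of *Nid2* leaves out 0.

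The alpha chains decide which receptors a laminin binds. *Lama4*, whose chain lacks the short arm end that lets laminins polymerise, had 4663, 4008 and 6232 normalized counts in tdTOMATO+ colonies, against 4752, 4529 and 5523 in tdTOMATO- colonies. The tdTOMATO+ range held all the tdTOMATO- colonies, and the fitted log2 fold change was -0.01 (95% interval -0.40 to 0.39; limma adjusted p = 0.989). *Lama5*, whose chain is bound by integrins and is widespread in epithelial and mature vessel basement membranes, had 1771, 2518 and 967 normalized counts in tdTOMATO+ colonies, against 2852, 2519 and 2046 in tdTOMATO- colonies. A single tdTOMATO+ colony was about as high as the middle tdTOMATO- colony, and the other two were lower than every tdTOMATO- colony. Its difference of -0.59 on the log2 scale (95% interval -1.48 to 0.30; limma adjusted p = 0.611) was -0.21 without tdTOMATO+ replicate 3 and -0.90 without tdTOMATO+ replicate 2. *Lama2*, the alpha chain of muscle and peripheral nerve, had 312, 1050 and 475 normalized counts in tdTOMATO+ colonies, against 483, 307 and 736 in tdTOMATO- colonies. It was high in tdTOMATO+ replicate 2 and its groups overlapped, at 0.17 on the log2 scale (95% interval -1.16 to 1.51; limma adjusted p = 0.944), which was -0.31 without that colony and -0.15 without tdTOMATO- replicate 2.

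*Lama2* and *Lama5* varied more between colonies of a group than most genes did. Among the 12303 genes that averaged 30 normalized counts or more, the within-group SD on the log2 scale stood at percentile 97.1 for *Lama2* (SD 0.77) and 93.1 for *Lama5* (SD 0.52), beside a median SD of 0.14. The third alpha chain gene, *Lama4*, stood at percentile 75.2 (SD 0.25), below *Nid1* at percentile 77.9 (SD 0.27). *Lamb2*, at percentile 21.1 (SD 0.083), varied least of the 10, and *Hspg2* and *Nid2* stood at percentiles 39.9 and 43.3.

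As shares of the summed alpha chain level per kb, with the low *Lama1* and *Lama3* included, *Lama4* made up 66.1%, 51.2% and 78.0% in tdTOMATO+ colonies and 57.1%, 58.2% and 59.4% in tdTOMATO- colonies. *Lama5* made up 26.6%, 34.1% and 12.8% in tdTOMATO+ colonies and 36.3%, 34.3% and 23.3% in tdTOMATO- colonies. *Lama4* was thus the leading alpha chain RNA in each colony, and the groups overlapped in both shares. The ratio of *Lama5* to *Lama4* counts was 0.38, 0.63 and 0.16 in tdTOMATO+ colonies, against 0.60, 0.56 and 0.37 in tdTOMATO- colonies (difference of mean log2 ratios -0.58; exact two-sided permutation p = 0.7). That difference was -0.029 without tdTOMATO+ replicate 3 and -1.04 without tdTOMATO+ replicate 2. *Lama1*, an alpha chain of embryonic basement membranes, made up 3.26% to 4.497% in tdTOMATO+ colonies and 2.02% to 11.2% in tdTOMATO- colonies, and *Lama3*, of epithelia, made up at most 0.74% in any colony.

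**Figure D3:**
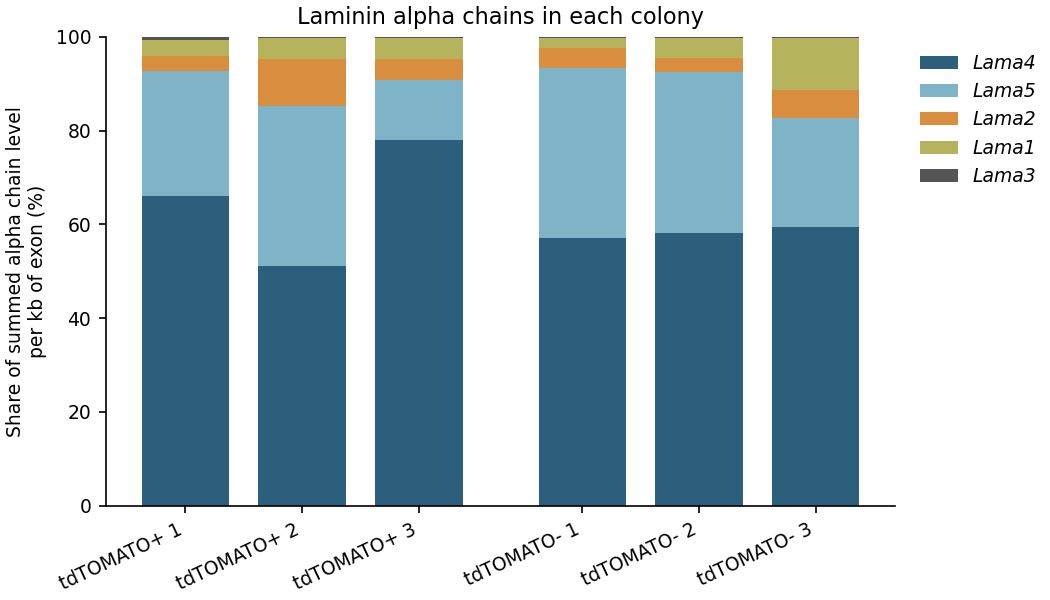
Share (%) of each laminin alpha chain gene in the summed alpha chain level per kb of exon, in each tdTOMATO+ colony (left) and each tdTOMATO- colony (right). *Lama4* takes 51.2% to 78.0% in tdTOMATO+ colonies and 57.1% to 59.4% in tdTOMATO- colonies. tdTOMATO+ replicate 3 has the lowest share of *Lama5*, 12.8%.

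The beta and gamma chains form the shared part of the trimer. *Lamb1* had 9339, 11166 and 11490 normalized counts in tdTOMATO+ colonies, against 9756, 11878 and 11301 in tdTOMATO- colonies. *Lamb2*, the beta chain of synapses, kidney glomeruli and mature vessels, had 6437, 6491 and 6852 normalized counts in tdTOMATO+ colonies, against 6663, 7133 and 7722 in tdTOMATO- colonies. Both pairs of groups overlapped, with log2 fold changes of -0.04 for *Lamb1* (95% interval -0.30 to 0.21; limma adjusted p = 0.929) and -0.12 for *Lamb2* (95% interval -0.30 to 0.06; limma adjusted p = 0.612). Per kb, both beta chains were close to equal: *Lamb1* made up 47.0% to 51.2% of the beta chain level in tdTOMATO+ colonies and 47.3% to 50.5% in tdTOMATO- colonies. *Lamb3*, of epithelia, made up at most 0.21%.

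*Lamc1*, whose chain is in most laminins and holds the nidogen binding site, had 7613, 7737 and 8414 normalized counts in tdTOMATO+ colonies, against 7472, 9174 and 10395 in tdTOMATO- colonies. The tdTOMATO+ colonies all lay within the tdTOMATO- range (log2 fold change -0.17, 95% interval -0.46 to 0.11; limma adjusted p = 0.649), and the value was -0.065 without tdTOMATO- replicate 3 and -0.30 without tdTOMATO- replicate 1. Summed per kb, beta chain RNA stood at 2002 to 2290 in tdTOMATO+ colonies and 2080 to 2411 in tdTOMATO- colonies, above *Lamc1* RNA at 920 to 1017 per kb in tdTOMATO+ colonies and 903 to 1257 per kb in tdTOMATO- colonies. Alpha chain RNA was lowest, at 584 to 662 per kb in tdTOMATO+ colonies and 645 to 770 per kb in tdTOMATO- colonies. These are RNA levels per length of annotated exon and not amounts of protein.

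Of the nidogens, *Nid2* was the one gene of the 10 whose groups did not overlap. It had 5026, 5234 and 4574 normalized counts in tdTOMATO+ colonies, against 5977, 6067 and 7198 in tdTOMATO- colonies. All 3 tdTOMATO+ colonies were lower than the lowest tdTOMATO- colony, as was the case for 8.33% of all genes, beside 1 of these 10. The mean was 4945 ± 337 in tdTOMATO+ and 6414 ± 681 in tdTOMATO- colonies (SD, n = 3 each), 0.773-fold on the log2 scale of the fit. The log2 fold change of -0.37 (SE 0.094; 95% interval -0.59 to -0.15) did not pass the test in limma (unadjusted p = 0.0047, adjusted p = 0.138) or in edgeR (adjusted p = 0.149), and it passed in DESeq2 (adjusted p = 0.021). Without any one colony it lay between -0.42 and -0.29, with limma adjusted p-values of 0.111 to 0.353. Scaled to the stroma markers it was -0.11 (limma adjusted p = 0.603), beside a median of 0.26 over all genes.

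*Nid1*, the more abundant nidogen, had 23211, 33108 and 27508 normalized counts in tdTOMATO+ colonies, against 24941, 34091 and 36204 in tdTOMATO- colonies. Its groups overlapped (log2 fold change -0.18, 95% interval -0.60 to 0.24; limma adjusted p = 0.780), at -0.054 without tdTOMATO+ replicate 1 and -0.35 without tdTOMATO- replicate 1. The ratio of *Nid1* to *Nid2* counts was 4.62, 6.33 and 6.01 in tdTOMATO+ colonies, against 4.17, 5.62 and 5.03 in tdTOMATO- colonies, and these ranges overlapped too (difference of mean log2 ratios 0.19; exact two-sided permutation p = 0.4). Per kb, *Nid2* made up 17.5% to 22.5% of nidogen RNA in tdTOMATO+ colonies and 19.3% to 24.3% in tdTOMATO- colonies.

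*Hspg2* had 51145, 63209 and 52466 normalized counts in tdTOMATO+ colonies, against 61808, 63114 and 60933 in tdTOMATO- colonies. The tdTOMATO- colonies lay close together, and tdTOMATO+ replicate 2 was above all of them while the other two were below (log2 fold change -0.16, 95% interval -0.40 to 0.07; limma adjusted p = 0.604). *Agrn*, known for clustering acetylcholine receptors at the nerve-muscle junction, had 1137, 1060 and 1240 normalized counts in tdTOMATO+ colonies, against 1238, 901 and 1163 in tdTOMATO- colonies. Its groups overlapped (log2 fold change 0.07, 95% interval -0.23 to 0.37; limma adjusted p = 0.901), and without tdTOMATO- replicate 2 the log2 fold change was -0.07. The ratio of *Hspg2* to *Agrn* counts was 45.0, 59.6 and 42.3 in tdTOMATO+ colonies, against 49.9, 70.0 and 52.4 in tdTOMATO- colonies (difference of mean log2 ratios -0.23; exact two-sided permutation p = 0.4).

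**Figure D4:**
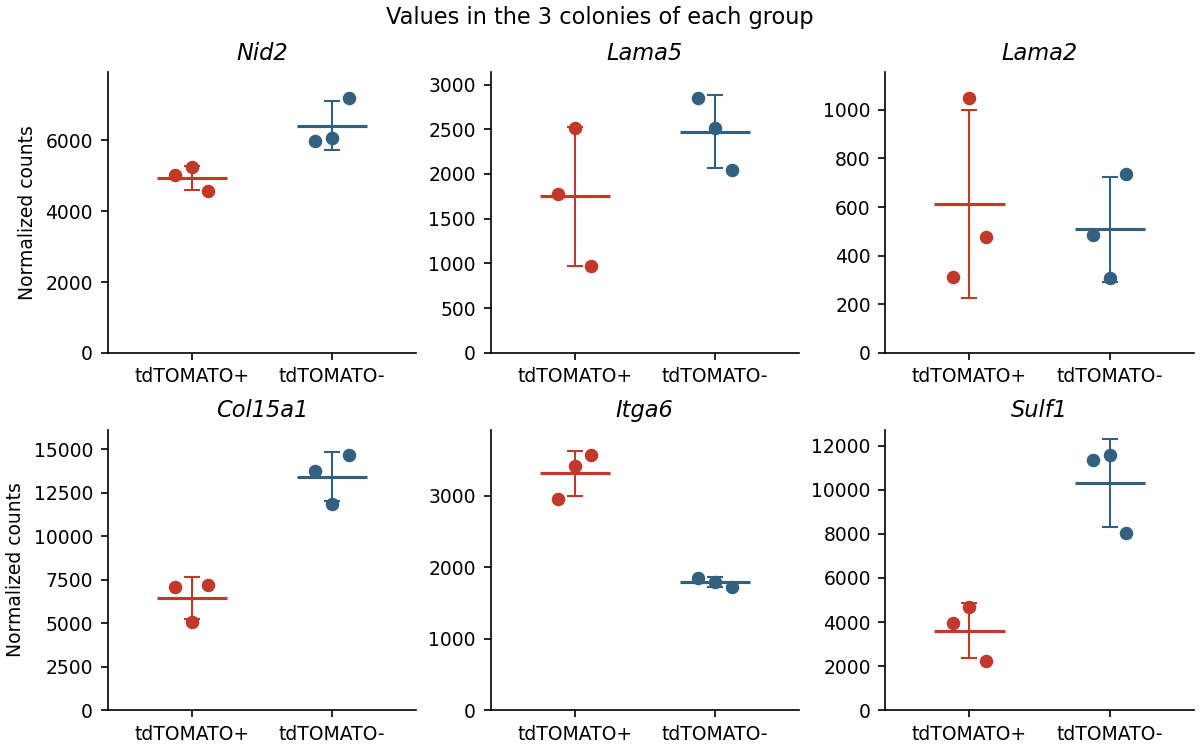
Normalized counts of *Nid2*, *Lama5*, *Lama2*, *Col15a1*, *Itga6* and *Sulf1* in the 3 tdTOMATO+ colonies (red, left) and the 3 tdTOMATO- colonies (blue, right), on linear axes that start at 0. Points are colonies, horizontal lines are means and whiskers are 1 SD. The groups overlap for *Lama5* and *Lama2* and not for the other 4 genes, of which *Col15a1* and *Itga6* passed the test.

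In all, 8 ratios between these genes were compared within colonies, which takes library scaling out of the comparison. With 3 colonies against 3 the smallest exact p possible is 0.1, and the p-values here were 0.4 to 1, with Benjamini-Hochberg adjusted values of 0.933 to 1 over the 8. In none of the 8 did the groups separate. Summed nidogens over *Lamc1* gave 3.71, 4.96 and 3.81 in tdTOMATO+ colonies, against 4.14, 4.38 and 4.18 in tdTOMATO- colonies. Summed alpha chains over *Lamc1* gave 0.886, 0.979 and 0.912 in tdTOMATO+ colonies, against 1.08, 0.802 and 0.799 in tdTOMATO- colonies. Across the 10 genes, tdTOMATO- replicate 3 held the highest value for 4 (*Lamb2*, *Lamc1*, *Nid1* and *Nid2*) and tdTOMATO+ replicate 1 the lowest value for 4 (*Lamb1*, *Lamb2*, *Nid1* and *Hspg2*).

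Other genes of the basement membrane were read from the same fit. Of 33 such genes 29 were measured. The main test called *Col15a1* alone lower in tdTOMATO+ colonies and none higher. Of the 29, 18 had a log2 fold change below 0 and 11 above. At an unadjusted p under 0.05, 2 were higher and 4 lower, against 1110 higher and 706 lower of all 14735 genes. The list's median log2 fold change was -0.32, beside 0.00 for all genes. *Col15a1*, a collagen at the outer face of basement membranes, had 7068, 5060 and 7221 normalized counts in tdTOMATO+ colonies, against 13750, 11867 and 14666 in tdTOMATO- colonies (0.476-fold; log2 fold change -1.07, SE 0.15; limma adjusted p = 0.026). All 3 tdTOMATO+ colonies were far below the tdTOMATO- colonies, yet with any one colony left out the adjusted p was 0.047 to 0.082, passing in 1 of 6 such fits. DESeq2 gave an adjusted p of 6.88e-09 and edgeR 0.027.

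Next by p came *Pxdn*, whose product crosslinks type IV collagen, at -0.33 on the log2 scale (limma adjusted p = 0.191), and *Ntn4*, a netrin that binds laminin gamma chains, at 0.98 on that scale (limma adjusted p = 0.238). Neither passed the test. The most abundant genes of the list were *Sparc*, a collagen-binding matrix protein (log2 fold change -0.12), and the type VI collagen chains *Col6a3* (-0.07) and *Col6a1* (0.09), with adjusted p-values of 0.877 to 0.940 in limma. The type IV collagen chains to which nidogens bind, named after their values were seen, also did not pass. *Col4a1* had 27845, 19703 and 23496 normalized counts in tdTOMATO+ colonies, against 23260, 31858 and 49108 in tdTOMATO- colonies (log2 fold change -0.50; limma adjusted p = 0.572). *Col4a2*, transcribed from the same promoter region, had 18676, 13562 and 15660 normalized counts in tdTOMATO+ colonies, against 17605, 22388 and 32346 in tdTOMATO- colonies (log2 fold change -0.56; limma adjusted p = 0.412). In both, tdTOMATO- replicate 3 was highest and the groups overlapped.

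Among 14 receptors for these proteins 13 were measured, with 1 called higher and 0 called lower in tdTOMATO+ colonies. Of the 13, 10 had a log2 fold change above 0 and 3 below, with a median of 0.17. The gene called was *Itga6*, an integrin alpha subunit that binds laminins. It had 2956, 3416 and 3572 normalized counts in tdTOMATO+ colonies, against 1855, 1794 and 1719 in tdTOMATO- colonies (1.85-fold; log2 fold change 0.89, SE 0.085; limma adjusted p = 0.014). The groups lay far apart, and with any one colony left out the adjusted p was 0.016 to 0.078, passing in 4 of 6 such fits. The macrophage markers given above moved in the same direction by a median log2 fold change of 0.83, and their part in the *Itga6* value was not tested. *Itga3*, another laminin-binding alpha subunit, had 836, 1454 and 1300 normalized counts in tdTOMATO+ colonies, against 800, 585 and 443 in tdTOMATO- colonies. Its tdTOMATO+ colonies were all higher than its tdTOMATO- colonies, as was the case for 1458 of all 14735 genes, with a log2 fold change of 0.98. The difference did not pass in limma (adjusted p = 0.231) or edgeR (adjusted p = 0.224), and it passed in DESeq2 (adjusted p = 0.0059). In limma *Lrp4*, an agrin receptor, also missed the threshold (log2 fold change 0.59, adjusted p = 0.372). The most abundant receptors were *Itgb1*, the beta subunit that pairs with both integrin chains (log2 fold change 0.10), and the syndecans *Sdc2* (0.28) and *Sdc4* (0.17), with limma adjusted p-values of 0.407 to 0.731.

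Dystroglycan binds laminins, perlecan and agrin through a sugar chain that a set of enzymes builds. Of 13 such enzymes 11 were measured and 0 passed in either direction, with a median log2 fold change of -0.09. The smallest p-values were those of *Large*, which extends the chain (-0.24), *B3galnt2* (-0.23) and *Tmem5* (-0.25), with limma adjusted p-values of 0.224 to 0.344. At an unadjusted p under 0.05, 3 of the 11 were lower and 0 higher in limma, against 706 lower and 1110 higher of all 14735 genes. DESeq2 gave those 3 enzymes adjusted p-values of 0.156 to 0.328. Of 13 genes of the dystrophin complex inside the cell 11 were measured and 0 passed, with a median of 0.01. Those with the smallest p were *Sntb2* (log2 fold change 0.25), *Dtnb* (0.36) and *Sgcb* (0.22), with limma adjusted p-values of 0.236 to 0.416. At an unadjusted p under 0.05, 2 of these 11 were higher and 0 lower, against the same 1110 higher and 706 lower of all genes.

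Of 26 enzymes that build or edit heparan sulfate, the sugar of perlecan and agrin, 23 were measured and 0 passed in limma. Their median log2 fold change was -0.02. At an unadjusted p under 0.05, 4 were higher and 2 lower, against 1110 higher and 706 lower of all 14735 genes. *Sulf1*, which removes sulfate groups from heparan sulfate outside the cell, had 3968, 4663 and 2213 normalized counts in tdTOMATO+ colonies, against 11365, 11579 and 8028 in tdTOMATO- colonies. All tdTOMATO+ colonies were lower than all tdTOMATO- colonies, as was the case for 8.33% of all genes. The log2 fold change of *Sulf1* was -1.56 (95% interval -2.31 to -0.82; adjusted p = 0.086 in limma, 0.089 in edgeR and 3.53e-07 in DESeq2). *Hpse*, heparanase, which cuts the chains, had 497, 419 and 578 normalized counts in tdTOMATO+ colonies, against 768, 686 and 814 in tdTOMATO- colonies. Its groups did not overlap either, with a log2 fold change of -0.61 (adjusted p = 0.083 in limma and 0.0050 in DESeq2). *Hs6st1*, which adds sulfate groups of the kind that *Sulf1* removes, differed by 0.25 on the log2 scale (limma adjusted p = 0.275).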

How the data were processed

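Colonies were grouped by the tdTOMATO status in their labels. Per the study's methods, the authors trimmed single-end reads with TrimGalore and Cutadapt and mapped them to GRCm38 by STAR. Uniquely placed reads were counted by HTSeq, and a gene entered the table if any library held 10 reads of it. Tool versions and strand setting are not given in the sources used here. The signal deposited by the authors is the DESeq2-normalized count of each gene in each colony. Their fold changes, errors, test statistics and p-values, and their gene ontology tables, were not used.

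Read counts were recovered as whole multiples of a step per colony (100% of values within 0.001). The step of replicate 3 of both groups lies close to 1, so recovery there rests on unrounded values. The main test was limma 3.58.1 (R 4.3.3; trend and robust; two-sided; log2 of value plus pseudocount 1; no low-value filter; all 14735 genes). edgeR 4.0.16 and DESeq2 1.42.0 were run on recovered reads. Ratios were tested by exact permutation. Levels per kb used GENCODE M21 exons. Each further list named its called genes, the 3 smallest p-values and, for matrix and receptor lists, the 3 most abundant, and marker lists the 2 most abundant. The 10 genes and all lists were chosen with earlier results of these data known. The intervals given with log2 fold changes are from limma and rest on the spread between colonies of a group.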

Additional observations from a re-analysis of the deposited data

How the results depend on the processing

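Of the 10 genes, 0 were called under every alternative run except DESeq2 on recovered reads, which called 1 lower (*Nid2*, log2 fold change -0.38). Over the whole table the calls were 498 higher and 159 lower with DESeq2, and 695 higher and 14 lower when libraries were scaled to the stroma markers. In limma without trend and robust fitting the calls were 1 higher and 0 lower (1075 higher and 647 lower at an unadjusted p under 0.05). With any one colony left out they were 1 to 178 higher and 0 to 44 lower, with the fewest without replicate 2 of the tdTOMATO+ group. Of the 87 measured genes of the 5 further lists together (other matrix genes, receptors, dystroglycan enzymes, dystrophin complex and heparan sulfate enzymes), the main test called 1 higher (*Itga6*) and 1 lower (*Col15a1*). DESeq2 called 2 higher and 3 lower, and the stroma scaling 6 higher and 1 lower. Limma without trend and robust fitting called 0 in either direction (15 at an unadjusted p under 0.05), and fits without any one colony 0 to 2 higher and 0 to 1 lower. The stroma scaling by itself moved the median log2 fold change of all genes to 0.26. The cause of the other shifts was not tested.

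Scaling to the stroma markers turned the log2 fold changes of *Lama4* (0.25), *Lamb1* (0.22), *Lamb2* (0.14), *Lamc1* (0.089), *Nid1* (0.082) and *Hspg2* (0.10) above 0, beside 0.26 for the median of all genes. *Lama4* was also above 0 in edgeR (0.014), DESeq2 (0.0096) and without the most abundant gene in the totals (0.013). With any one colony left out, the sign changed for *Lama2* (-0.31 to 0.56), *Lama4* (-0.19 to 0.13), *Lamb1* (-0.13 to 0.050) and *Agrn* (-0.069 to 0.16), and for the log2 ratio differences of *Lama4* over *Lama2* (-0.54 to 0.44), summed nidogens over *Lamc1* (-0.17 to 0.040) and summed alpha chains over *Lamc1* (-0.010 to 0.21). The sign held, while the value moved by over 1.5 times, for *Lama5* (-0.90 to -0.21), *Lamb2* (-0.17 to -0.065), *Lamc1* (-0.30 to -0.065), *Nid1* (-0.35 to -0.05) and *Hspg2* (-0.26 to -0.11). The same was true of the log2 ratio differences of *Lama5* over *Lama4* (-1.04 to -0.029), *Lamb1* over *Lamb2* (0.030 to 0.15), summed beta chains over *Lamc1* (0.028 to 0.16), *Nid1* over *Nid2* (0.075 to 0.33) and *Hspg2* over *Agrn* (-0.38 to -0.080). None of these passed a test in any of those fits. Other pseudocounts and filters changed no call of the 10 genes.

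The labels give replicates 1 to 3 in both groups with no stated pairing. Colonies of the same number correlated in their deviations at 0.090, 0.024 and 0.18, and colonies of different numbers at -0.13 to 0.068. With 3 colonies a group, these values cannot decide whether colonies of the same number share an origin. tdTOMATO+ replicate 2 correlated better with tdTOMATO- replicate 1 (0.068) than with its own number. With a replicate block 0 of the 10 genes were called (lowest limma adjusted p = 0.203, *Nid2*), 124 genes of the table were higher and 24 lower, and of the 87 genes of the further lists 1 was higher and 2 lower. The 3 colonies a group limit what can be seen: for *Lama2* and *Lama5* the intervals leave room for more than 2-fold differences.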

Other observations

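A single colony, tdTOMATO- replicate 3, stood apart in several matrix genes, which were picked after their values were seen. *Lum*, the small leucine-rich proteoglycan lumican, had 11.3, 16.3 and 16.1 normalized counts in tdTOMATO+ colonies, against 16.0, 18.3 and 795.8 in tdTOMATO- colonies. *Acan*, the cartilage proteoglycan aggrecan, had 2.06, 0 and 0 normalized counts in tdTOMATO+ colonies, against 4.58, 0.964 and 161.4 in tdTOMATO- colonies. *Lama1* had 184.6, 281.3 and 288.4 normalized counts in tdTOMATO+ colonies, against 135.1, 274.7 and 837.9 in tdTOMATO- colonies. In limma the adjusted p-values of these genes were 0.697 for *Lum*, 0.523 for *Acan* and 0.905 for *Lama1*.

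*Sulf2*, which like *Sulf1* removes sulfate groups from heparan sulfate and was also named after its values were seen, had 3813, 3814 and 5678 normalized counts in tdTOMATO+ colonies, against 2607, 3548 and 3525 in tdTOMATO- colonies. The groups did not overlap and the tdTOMATO+ colonies were the higher ones, opposite to *Sulf1*. Over the whole table, 1458 of 14735 genes had all tdTOMATO+ colonies higher. The *Sulf2* difference did not pass (log2 fold change 0.45; limma adjusted p = 0.431).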
